A study of Homo sapiens with 6 samples.

Results

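CCN1 and CCN2, the 3 angiomotin genes AMOT, AMOTL1 and AMOTL2, and ANKRD1, AJUBA, LATS2 and AXL are known as genes that YAP and TAZ switch on through TEAD factors, or as partners of that pathway. These 9 genes were taken by symbol from a count table of 60564 gene rows, where each symbol matched 1 Ensembl row. They were proposed with the difference between the 2 groups of libraries already known, so their values are a description here and support nothing by themselves. The table covers A2780, a human ovarian cancer cell line grown as a single line, with 3 libraries in the group GPT2si and 3 in the group GPT2sinc. All libraries carry the A2780 background, and the labels name no other allele, agent, dose or time. GPT2 encodes the mitochondrial alanine aminotransferase, and the series title concerns its deficiency. The labels do not spell out si and sinc, nor do they name a separate culture for each library, so p-values cover no more than the variation among these 6 libraries, and that variation may be technical.

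The Hippo pathway is a chain of kinases that ends with LATS1 and LATS2. When LATS is active it phosphorylates YAP1 and its paralog TAZ (gene WWTR1), which are then held in the cytoplasm or degraded. When LATS is inactive, as in spread cells under tension, YAP and TAZ enter the nucleus, bind the TEAD transcription factors on DNA and switch on genes such as CCN1, CCN2 and ANKRD1. Some of the targets, LATS2 and AMOTL2 among them, encode inhibitors of YAP and so act as negative feedback. CCN1 and CCN2 also respond to TGF-beta and to SRF with its actin-sensing MRTF coactivators.

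TEAD factors recognise the core GGAATG, read as CATTCC on the other strand, and the start regions of the genes show where these letters stand. RefSeq promoter windows on GRCh38.p14, from 250 bases before to 50 bases after a transcript start, were found for 8 of the 9 genes (11 windows), and CCN1 was not matched. The core occurred on either strand in 6 of the 11 windows, and in 14.0% of all 35116 windows. CCN2 held 3 copies, at positions −169, −104 and −95 from its start, and 0.128% of all windows held at least 3. ANKRD1 held 2, and 1.37% of all windows held at least 2. The stretch of the CCN2 promoter from 250 to 11 bases before the start (chr6:131951383-131951622, minus strand) is shown whole because it carries all 3 copies, with the core in capitals. The 30-base stretches below it show the core near the start of 5 other genes. They lie at chr3:134374499-134374528 (AMOTL2, before the inner of its 2 starts), chr10:90921290-90921319 and chr10:90921198-90921227 (ANKRD1), chr14:22976884-22976913 (AJUBA, inner start), chr13:21061560-21061589 (LATS2, where the core begins at base 10 of the transcript) and chr19:41226531-41226560 (AXL, inner start). All but AXL are on the minus strand, and each is written in the gene's own direction.
CCN2: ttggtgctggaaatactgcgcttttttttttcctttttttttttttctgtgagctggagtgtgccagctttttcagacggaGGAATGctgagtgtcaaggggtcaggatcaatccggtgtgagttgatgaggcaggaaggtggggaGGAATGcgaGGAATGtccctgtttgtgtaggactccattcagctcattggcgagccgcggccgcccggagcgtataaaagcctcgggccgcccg
AMOTL2: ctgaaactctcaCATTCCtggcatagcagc
ANKRD1, first copy: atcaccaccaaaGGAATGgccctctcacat
ANKRD1, second copy: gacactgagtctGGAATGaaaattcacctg
AJUBA: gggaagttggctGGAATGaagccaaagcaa
LATS2: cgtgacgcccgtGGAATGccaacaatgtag
AXL: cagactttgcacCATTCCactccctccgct
The windows of AMOT, AMOTL1, and the outer starts of AMOTL2, AJUBA and AXL held no copy. The AP-1 motif TGANTCA (its own reverse complement, not overlapping the TEAD core) was found in 1 of the 11 windows, that of ANKRD1, and in 7.71% of all windows. The CArG box of SRF was found in 0 of the 11 and in 1.29% of all. A match of letters is a description of the sequence and does not show binding, and a missing match says only that these letters are not in this window.

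Total counts ran from 41931162 to 50882329 per library. GPT2 itself was at 95.0 ± 1.69 CPM (read counts relative to library size, scaled by TMM factors; SD, n = 3) with GPT2si and 228 ± 8.59 CPM with GPT2sinc, or 41.7% of the GPT2sinc level. The library GPT2si 2 stood apart from the rest: pairs that include it had a chi-square per degree of freedom of 28.8 to 67.0 over genes, against 6.25 to 31.4 for the other pairs. Among markers of ovarian carcinoma, WT1 and KRT7 had 0 counts in each library, which allows up to 0.0597 to 0.0770 CPM for a floor of 3 counts (counting error only). PAX8 was at 0.18 ± 0.08 CPM and EPCAM at 1.94 ± 0.28 CPM with GPT2sinc, while KRT8 was at 31.7 ± 0.69 CPM. The summed level of the 8 carcinoma markers was 57.3 to 59.9 CPM in the GPT2sinc and 64.4 to 80.2 CPM in the GPT2si libraries. Nearly all of this sum and of its difference came from the keratins KRT8 and KRT18. With GPT2si KRT8 was at 38.4 ± 4.00 CPM, and KRT18 was at 31.2 ± 4.17 against 24.7 ± 0.68 CPM. EPCAM was at 1.61 ± 0.09 CPM with GPT2si, and the remaining carcinoma markers were at or near 0. The part of this difference in the results was not tested. The 6 fibroblast markers summed to 2857 to 3019 and 2876 to 3062 CPM, nearly all of it from collagens. With GPT2sinc, COL3A1 was at 2561 ± 65.9, COL1A2 at 243 ± 6.81 and COL1A1 at 119 ± 7.32 CPM. The other markers of this set were low, with PDGFRB at 9.45 ± 0.95, DCN at 3.90 ± 0.46 and LUM at 0.26 ± 0.07 CPM. The 4 endothelial markers summed to at most 0.299 CPM. The 5 leukocyte markers summed to 4.14 to 5.27 and 4.57 to 8.36 CPM, nearly all of it CD68. Enough counts for the test were present for 3 of the 8 carcinoma, 6 of the 6 fibroblast, 0 of the 4 endothelial and 1 of the 5 leukocyte markers. None of the tested markers passed.

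CCN1, CCN2 and AMOTL2 were higher with GPT2si, AMOT was lower in each GPT2si library without passing the test, and the other members differed by less than 1.5-fold or had few counts. All 9 passed the filter on low counts. In the edgeR quasi-likelihood fit over all 17006 genes, with Benjamini-Hochberg adjustment and a threshold of 0.05, 3 of the 9 were called higher and 0 lower. Over all genes tested, 0.576% were called higher and 0.841% lower, and since the contrast was known when the genes were proposed, nothing is read from this count. Of the 9, 5 had every GPT2si library above every GPT2sinc library (14.9% of all tested genes) and 2 had every one below (13.2%). The median log2 fold change was 0.37 over the 9 and −0.01 over all tested genes. In bulk RNA, more cells with a transcript and more transcript per cell cannot be told apart.

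CCN2, long known as connective tissue growth factor, is a secreted matricellular protein that binds integrins, heparan sulphate and growth factors. It had 346, 244 and 267 counts in GPT2si 1 to 3 and 95, 126 and 108 counts in GPT2sinc 1 to 3, or 6.88, 6.26 and 5.86 CPM against 2.07, 2.71 and 2.48 CPM. The lowest GPT2si library was above the highest GPT2sinc library by far more than the spread within either group. The means were 6.33 ± 0.51 and 2.42 ± 0.32 CPM (SD, n = 3 each), a ratio of 2.62, and the log2 fold change was 1.39 (SE 0.17). No other member had a larger fold change. The CCN2 gene (ENSG00000118523; chromosome 6, 131948176 to 131951373 on the minus strand of GRCh38 in GENCODE 29) shares 8.3% of its exon bases with an antisense gene, AL133346.1, which had 0 to 3 counts per library.

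CCN1 (ENSG00000142871; chromosome 1, 85580761 to 85583962, plus strand) encodes CYR61, a secreted relative of CCN2 that acts on cells through integrins and heparan sulphate. It had 848, 717 and 670 counts with GPT2si and 450, 427 and 338 counts with GPT2sinc, or 16.9, 18.4 and 14.7 CPM against 9.81, 9.19 and 7.77 CPM. The groups did not overlap, and GPT2si 3 was the nearest to the GPT2sinc libraries. The means were 16.7 ± 1.85 and 8.92 ± 1.05 CPM, a ratio of 1.87, with a log2 fold change of 0.90 (SE 0.14). CCN2 differed more than CCN1 within the same libraries. For each CCN1 count there were 0.408, 0.340 and 0.399 CCN2 counts in GPT2si 1 to 3 and 0.211, 0.295 and 0.320 in GPT2sinc 1 to 3. This ratio needs no scaling between libraries, and its groups did not overlap either, although GPT2si 2 and GPT2sinc 3 lay close together. The difference in this ratio was not tested, nor was that small gap set against counting error.

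**Figure D1:**
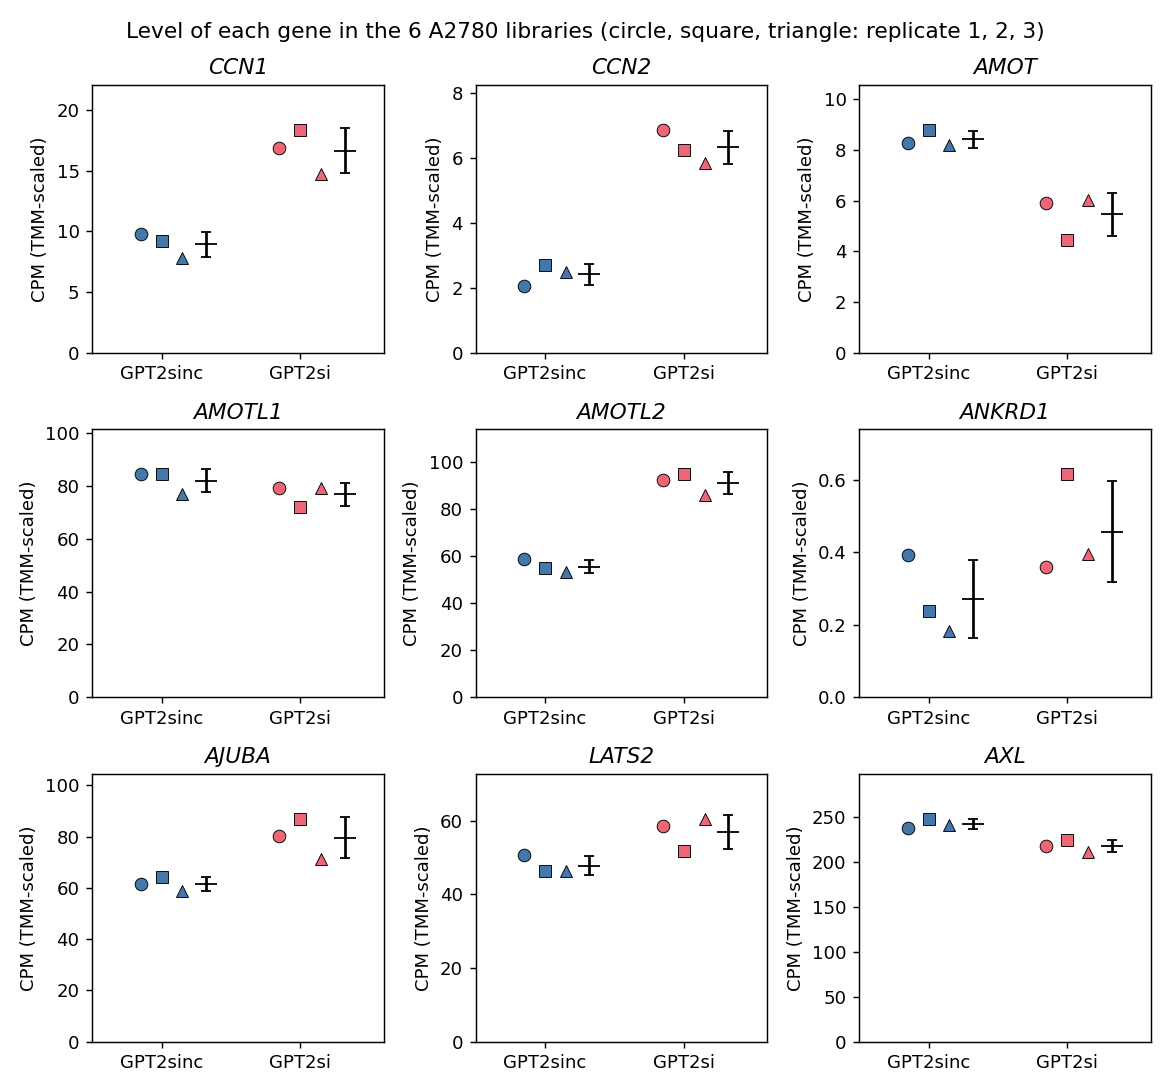
TMM-scaled CPM (vertical axes, from 0) of the 9 genes in the 3 GPT2sinc (blue) and 3 GPT2si (red) libraries, 1 point per library, with the mean and SD of each group in black at the right of its points. CCN1, CCN2, AMOTL2, AJUBA and LATS2 lie higher in each GPT2si library than in any GPT2sinc library, AMOT and AXL lie lower, and AMOTL1 and ANKRD1 overlap.

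The angiomotins are scaffold proteins of tight junctions and actin fibres. They bind YAP and TAZ directly, and they also bind LATS kinases, by which they hold YAP out of the nucleus. AMOTL2, the member that is also a TEAD target, had 4633, 3691 and 3915 counts with GPT2si and 2682, 2540 and 2314 counts with GPT2sinc, or 92.1, 94.7 and 85.9 CPM against 58.5, 54.7 and 53.2 CPM. The gap between the groups was several times the spread within them. The means were 90.9 ± 4.51 and 55.4 ± 2.72 CPM, a ratio of 1.64, with a log2 fold change of 0.71 (SE 0.09). AMOTL2 lies on chromosome 3, 134355874 to 134375479 on the minus strand (ENSG00000114019).

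AMOT, the founding member of the family, was at 5.89, 4.46 and 6.01 CPM with GPT2si and 8.26, 8.80 and 8.20 CPM with GPT2sinc. The GPT2si libraries were all lower, with GPT2si 2 the lowest. The log2 fold change was −0.62 (SE 0.16) and did not pass the test. It passed with the DESeq2 Wald test, and in edgeR once trends with GC content and transcript length were taken out. Without GPT2si 2 the fold change was −0.52 (SE 0.12).

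AMOTL1 was at 79.3, 71.9 and 79.4 CPM with GPT2si and 84.5, 84.6 and 77.0 CPM with GPT2sinc. The groups overlapped, and the log2 fold change was −0.09 (SE 0.09). Since the 3 genes differ in length, their make-up was compared per kilobase of the exons annotated in GENCODE 29. Of the summed angiomotin level per kilobase, AMOTL2 took 64.2%, 67.3% and 62.5% in GPT2si 1 to 3 and 51.0%, 49.1% and 50.7% in GPT2sinc 1 to 3. AMOTL1 took 30.5% to 34.4% with GPT2si and 43.8% to 45.3% with GPT2sinc. AMOT took 2.23% to 3.08% and 5.07% to 5.57%. The family as a whole was at 23.0 to 24.0 CPM per kilobase with GPT2si and 17.5 to 19.2 with GPT2sinc. For each AMOT count there were 15.7, 21.2 and 14.3 AMOTL2 counts with GPT2si and 7.08, 6.21 and 6.48 with GPT2sinc. So the AMOTL2 to AMOT ratio, which is free of library scaling, stood apart between the groups in each library.

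**Figure D2:**
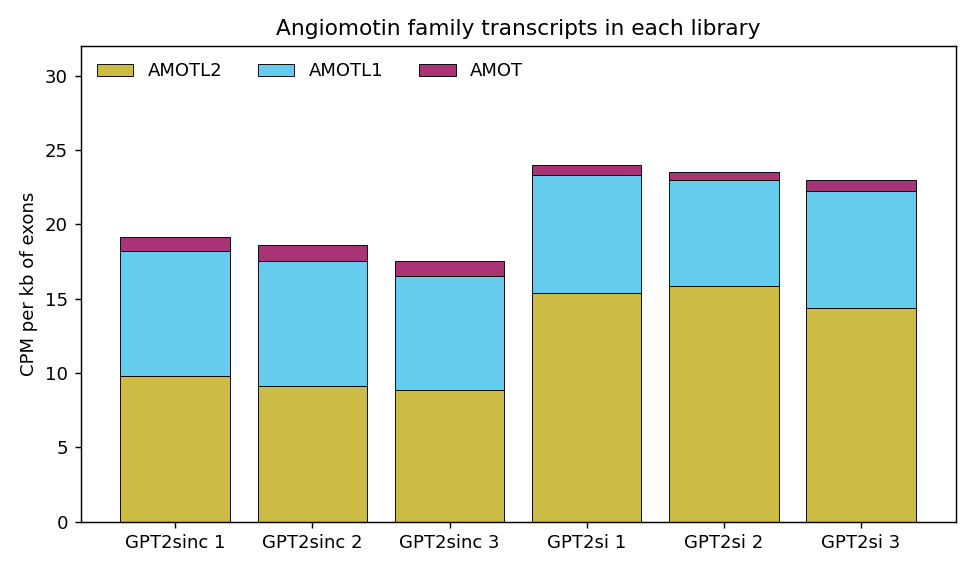
Stacked level of AMOTL2, AMOTL1 and AMOT in CPM per kilobase of exons (vertical axis, from 0), 1 bar per library. The AMOTL2 part is 14.4 to 15.8 in the GPT2si libraries and 8.89 to 9.77 in the GPT2sinc libraries, while the AMOTL1 parts overlap and the AMOT part is the smallest in each bar.

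LATS2 and AJUBA sit on either side of the kinase step. LATS2 is the kinase that phosphorylates YAP and TAZ, and AJUBA is a LIM domain protein of cell junctions that binds LATS kinases and lowers their activity. AJUBA was at 80.3, 87.0 and 71.3 CPM with GPT2si and 61.4, 64.1 and 58.7 CPM with GPT2sinc. The groups did not overlap and GPT2si 2 was the highest library. The log2 fold change of 0.37 (SE 0.10) did not pass the test in edgeR, and passed with DESeq2 and with GC and length offsets. LATS2 was at 58.7, 51.8 and 60.6 CPM with GPT2si and 50.7, 46.3 and 46.5 CPM with GPT2sinc. Here GPT2si 2 was the lowest of its group, just above GPT2sinc 1. The log2 fold change was 0.25 (SE 0.10), and it passed in none of the 15 alternative settings.

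AXL and ANKRD1 are at the ends of the range of expression. AXL, a receptor tyrosine kinase whose ligand is GAS6, was at 218, 224 and 212 CPM with GPT2si and 238, 248 and 241 CPM with GPT2sinc. Each GPT2si library was lower, in the opposite direction to CCN1 and CCN2. The log2 fold change was only −0.15 (SE 0.07). It did not pass, except with GC and length offsets. ANKRD1, a nuclear ankyrin repeat protein of strained muscle that is used as a readout of YAP activity in many cell types, had 18, 24 and 18 counts with GPT2si and 18, 11 and 8 with GPT2sinc. At such counts the groups overlapped, with 0.46 ± 0.14 against 0.27 ± 0.11 CPM and a log2 fold change of 0.73 (SE 0.43). That value ran from 0.45 without GPT2si 2 to 1.09 without GPT2sinc 1, and it did not pass in any setting where it was tested.

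Per kilobase of exons, the order of the members in the GPT2sinc libraries was AXL (47.0 ± 1.09 CPM per kilobase), AJUBA (10.3 ± 0.45), AMOTL2 (9.26 ± 0.46), LATS2 (8.57 ± 0.45), AMOTL1 (8.17 ± 0.44), CCN1 (3.63 ± 0.43), CCN2 (1.04 ± 0.14), AMOT (0.99 ± 0.04) and ANKRD1 (0.14 ± 0.05). The ranges over libraries overlapped between AMOTL2 and LATS2, LATS2 and AMOTL1, and CCN2 and AMOT. In the GPT2si libraries AMOTL2 (15.2 ± 0.75) came before AJUBA (13.3 ± 1.32) with overlapping ranges, and CCN2 (2.71 ± 0.22) stood apart from AMOT (0.64 ± 0.10). CCN1 (6.78 ± 0.76) then overlapped AMOTL1 (7.66 ± 0.43). The spread between libraries of a group, as SD over mean, was smallest for AXL (2.31% with GPT2sinc and 2.85% with GPT2si) and largest for ANKRD1 (40.0% and 30.5%). For CCN1 it was 11.7% and 11.1%, and for CCN2 13.4% and 8.12%.

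The calls of CCN1, CCN2 and AMOTL2 depended on single libraries, while their fold changes moved little. Without GPT2sinc 1, 2 or 3, or without GPT2si 1, 0 members passed, and the counts of genes called higher over the whole table were then 3, 0, 1 and 1. Without GPT2si 2 or GPT2si 3 the same 3 members passed, and 377 genes (2.15%) and 51 genes (0.293%) were then called higher over the table. Over the 15 alternative settings the log2 fold change ran from 1.29 to 1.48 for CCN2, from 0.81 to 0.98 for CCN1 and from 0.64 to 0.75 for AMOTL2. Testing all genes with any count left 2 members called, AMOTL2 and CCN2. With GC and length offsets AJUBA was also called higher, AMOT and AXL were called lower, and 1212 genes were called higher and 1039 lower over the table, against 98 and 143 in the reported fit.

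**Figure D3:**
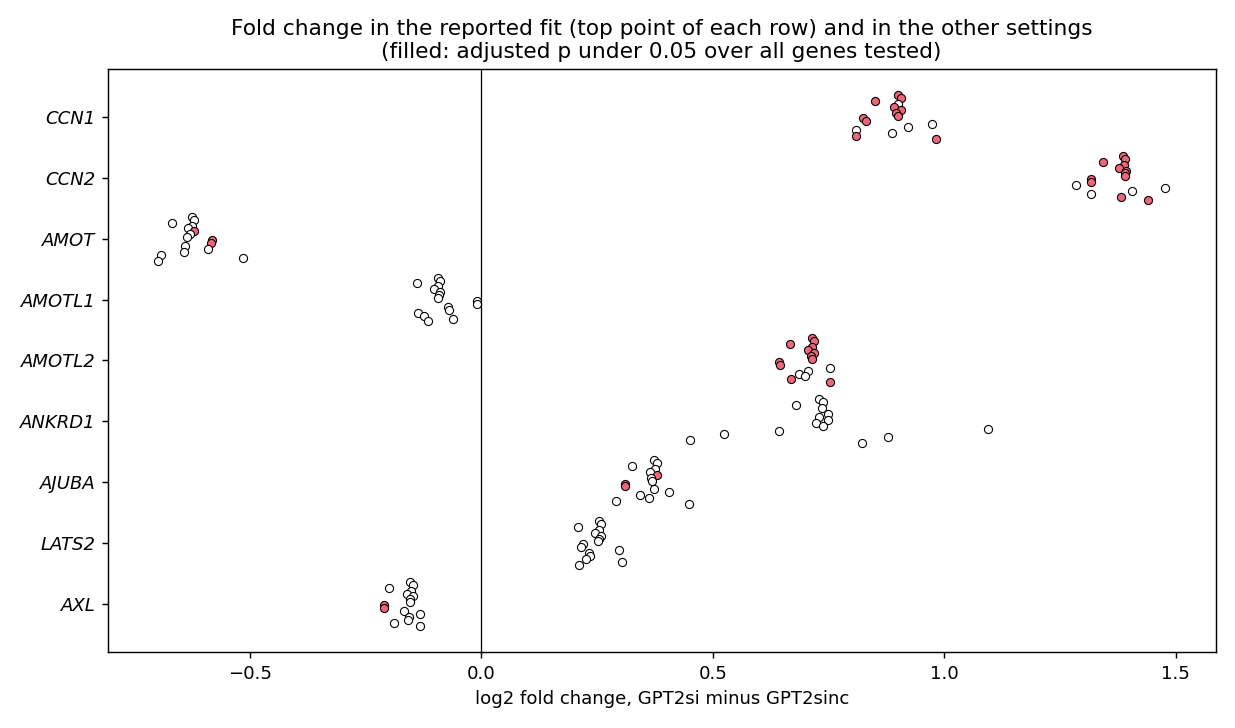
Log2 fold change (horizontal axis, GPT2si minus GPT2sinc) of each of the 9 genes in the reported edgeR fit, drawn as the uppermost point of its row, and in the alternative settings below it. Filled points passed an adjusted p of 0.05 over all genes tested. Each gene keeps its sign in every setting where it was tested, and CCN2 stays between 1.29 and 1.48.

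The other genes of the pathway were taken from lists of 94 genes by role, of which 83 were tested. In the edgeR quasi-likelihood fit 0 of the 83 were called higher and 0 lower. Before adjustment 16 (19.3%) were higher and 8 (9.64%) lower at p under 0.05, beside 10.3% and 9.27% of all tested genes. DESeq2 called 6 higher (FJX1, SRF, TRIP6, WTIP, WWC1 and ZYX) and 2 lower (DCHS1 and ITGB3), and limma-voom called 0. DESeq2 also called 3.35% of all tested genes higher (569), and 491 of the 17006 lower. Without GPT2si 2, edgeR called 5 higher (FJX1, FRMD6, SRF, WWC1 and ZYX), beside 2.15% of all genes (377). With GC and length offsets it called 13 higher and 4 lower, beside 7.2% of all genes called higher and 1039 of 16825 genes called lower. The median log2 fold change over the 83 was −0.08.

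YAP1, WWTR1 and the TEAD factors of this pathway were expressed in each library. YAP1 was at 93.7 ± 18.1 CPM with GPT2si and 104 ± 14.4 CPM with GPT2sinc (log2 fold change −0.16, SE 0.15), and WWTR1 at 75.7 ± 11.1 and 79.9 ± 7.31 CPM (−0.08, SE 0.12). The groups overlapped for both. TEAD4 was at 53.1 ± 10.0 against 39.8 ± 3.89 CPM (0.41, SE 0.14) and TEAD2 at 162 ± 27.3 against 134 ± 7.11 CPM (0.27, SE 0.12). For both, each GPT2si library was higher, and neither passed (adjusted p = 0.156 and 0.240, edgeR). GPT2si 2 was the highest library for both, at 64.6 CPM of TEAD4 against 46.0 and 48.8 in GPT2si 1 and 3, and at 193 CPM of TEAD2 against 147 and 145. Without it the log2 fold changes were 0.24 and 0.11. Both passed with GC and length offsets (adjusted p = 0.0219 and 0.0383, edgeR; up to 0.491 and 0.602 in other settings). TEAD1 (0.15, SE 0.24) and TEAD3 (0.11, SE 0.11) overlapped between the groups. VGLL4, which competes with YAP for TEAD, was at −0.08 (SE 0.08). VGLL1 had 0 counts.

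Of 26 Hippo kinases and their regulators 0 passed, with 9 positive and 17 negative fold changes, where 48% of all tested genes were positive. Of the GPT2si libraries, GPT2si 2 was the lowest for every negative gene but DCHS1, so these signs depend in part on that library. How many would stay negative without it was not tested. LATS1, the paralog of LATS2, was at −0.10 (SE 0.16). It was at 13.3, 9.29 and 12.4 CPM in GPT2si 1 to 3 and at 12.5 ± 0.87 CPM with GPT2sinc. WWC1, the scaffold KIBRA that activates LATS, was at 38.4 ± 2.39 against 28.4 ± 0.82 CPM (0.44, SE 0.10; adjusted p = 0.0622, edgeR). The large cadherins FAT4 and DCHS1, which bind each other across cell contacts, were at −0.75 (SE 0.20) and −0.48 (SE 0.14), with adjusted p = 0.103 and 0.116 by edgeR. For WWC1 all GPT2si libraries were higher, and for the cadherins all were lower.

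Of 20 further targets of YAP and TEAD, 14 were tested and 0 passed, with 7 positive and 7 negative fold changes and a median of −0.03. Before adjustment 4 (28.6%) were higher and 0 lower at p under 0.05 by edgeR, beside 10.3% and 9.27% of all tested genes. The nearest were FJX1, a secreted four-jointed homolog, at 17.9 ± 2.95 against 11.8 ± 0.99 CPM (0.60, SE 0.15; adjusted p = 0.0773, edgeR) and THBS1, the matrix glycoprotein thrombospondin, at 2.07 ± 0.39 against 1.17 ± 0.20 CPM (0.82, SE 0.24; adjusted p = 0.115). The groups did not overlap for either gene. F3, IGFBP3, NT5E, AREG, EDN1 and FOXF2 had too few counts to be tested. CCDC80, which encodes a secreted matrix protein, was at −0.15 (SE 0.10), and MYOF at 0.11 (SE 0.09).

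**Figure D4:**
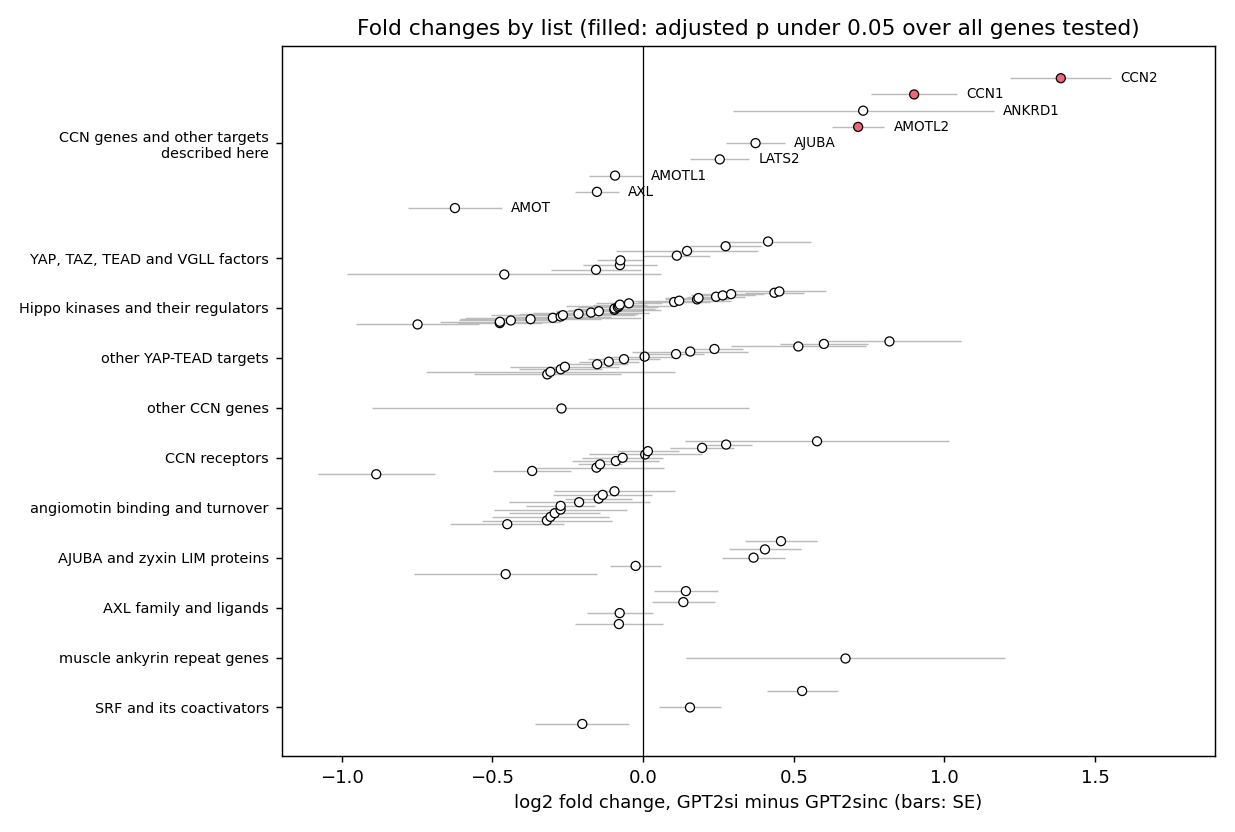
Log2 fold change (horizontal axis, GPT2si minus GPT2sinc, bars show SE) of each tested gene, grouped by list on the vertical axis. Filled points passed an adjusted p of 0.05 over all genes tested: CCN2, CCN1 and AMOTL2 in the top group and none in the others.

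No other CCN gene was expressed at a comparable count. CCN3 had 0 to 6 counts per library, CCN4 3 to 33, CCN5 0 to 2 and CCN6 0. CCN4 was the only one tested (−0.27, SE 0.63). Among 11 integrins and other receptors of CCN proteins 0 passed. ITGB3, which pairs with ITGAV to form a receptor of CCN1 and CCN2, was at 1.66 ± 0.15 against 3.07 ± 0.46 CPM (−0.89, SE 0.19; adjusted p = 0.0599, edgeR), lower in each GPT2si library. ITGB5, another partner of ITGAV, was at 85.9 ± 5.35 against 71.0 ± 0.87 CPM (0.28, SE 0.08; adjusted p = 0.127), higher in each. ITGA2B, the platelet partner of ITGB3, was at −0.37 (SE 0.13; adjusted p = 0.165), and ITGAV itself at −0.15 (SE 0.22) with overlapping groups.

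The genes around the angiomotins, AJUBA, AXL and ANKRD1 gave 0 calls as well. The 10 genes for angiomotin binding and turnover all had negative fold changes, from −0.45 to −0.10, where 48% of all tested genes were positive. GPT2si 2 was the lowest library for each of them, so the shared sign depends in part on that library. How many would stay negative without it was not counted. The lowest p among them were those of NEDD4L, a ubiquitin ligase (−0.27, SE 0.11), PATJ, a polarity scaffold (−0.45, SE 0.19), and MPDZ, its paralog (−0.29, SE 0.15), with adjusted p = 0.229, 0.232 and 0.317 by edgeR. Without GPT2si 2 the fold changes of PATJ and MPDZ were −0.28 and −0.17, and with GC and length offsets that of NEDD4L was −0.14 and that of MPDZ −0.20. The LIM proteins related to AJUBA split. WTIP was at 33.1 ± 3.35 against 24.1 ± 2.53 CPM (0.46, SE 0.12), zyxin (ZYX) at 172 ± 31.2 against 130 ± 2.24 CPM (0.40, SE 0.12) and TRIP6 at 119 ± 14.9 against 92.4 ± 4.95 CPM (0.37, SE 0.10). Each GPT2si library was higher for these 3, with adjusted p = 0.0907, 0.120 and 0.111 by edgeR. ZYX was at 208 CPM in GPT2si 2 and 154 CPM in each of GPT2si 1 and 3, and its log2 fold change was 0.23 without GPT2si 2, where it passed (adjusted p = 0.0437, edgeR; up to 0.407 in other settings). LIMD1 was at −0.02 (SE 0.08) and LPP at −0.46 (SE 0.30), both overlapping.

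For the receptors related to AXL and for its ligands 0 of 4 passed, and the groups overlapped. TYRO3 was at 0.14 (SE 0.11), MERTK at 0.13 (SE 0.10), GAS6 at −0.08 (SE 0.11) and PROS1 at −0.08 (SE 0.15). Of the muscle ankyrin repeat genes related to ANKRD1, only ANKRD23 was tested (0.67, SE 0.53). SRF, a transcription factor that shares targets with YAP, was at 105 ± 15.7 against 72.8 ± 5.73 CPM (0.53, SE 0.12; adjusted p = 0.0622, edgeR), higher in each GPT2si library. Its coactivators MRTFA (0.16, SE 0.10) and MRTFB (−0.20, SE 0.16) overlapped between the groups.

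Across the 6 libraries, the genes nearest to the mean profile of CCN1 and CCN2 were ID1, BSN, SERPINB8, TAGLN, ACTG2 and EGR1. Nearness was the root mean square difference of log2 CPM, each gene centred on its own mean, among 10203 protein-coding genes with at least 5 CPM on average. The difference was 0.11 for ID1, an inhibitor of basic helix-loop-helix factors, 0.12 each for BSN, SERPINB8 and TAGLN, 0.14 for the smooth muscle actin ACTG2 and 0.15 for EGR1, an immediate early factor. CCN1 and CCN2 differed from each other by 0.31, and CCN1 from AMOTL2 by only 0.13. Nearest to AMOTL2 were DDX31, an RNA helicase (0.08), FGFBP3, a carrier of fibroblast growth factors (0.08), and SPRY4, a feedback inhibitor of ERK signalling (0.09). Each of these 9 genes was called higher, with log2 fold changes from 0.56 for SPRY4 to 1.17 for TAGLN. All libraries entered both the profile and the fold changes, so this nearness is a description over 6 libraries and no test. The coding sequence of ACTG2 is similar to those of other actins, and the sources used here do not give how shared reads were counted.

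**Figure D5:**
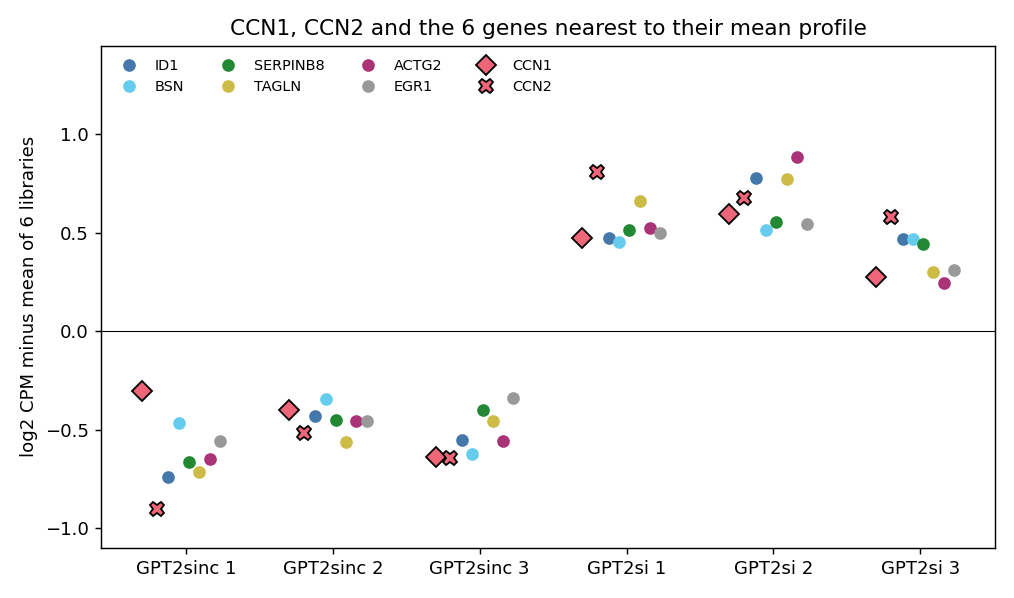
Log2 CPM minus the gene's mean over the 6 libraries (vertical axis) for CCN1, CCN2 and the 6 genes nearest to their mean profile, by library. All 8 genes lie below 0 in the GPT2sinc and above 0 in the GPT2si libraries, with CCN2 the lowest (−0.90) and CCN1 the highest (−0.31) in GPT2sinc 1.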

How the data were processed

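RNA-seq was made from 6 A2780 libraries, whose titles give group and replicate number. Poly(A) RNA was fragmented, copied in a strand-marking way (dUTP) and amplified by PCR, per the labels' protocols. The deposited table holds raw counts per Ensembl gene, with no normalization by the authors. Columns were tied to libraries through their names, with 0 left unmapped. The submitters' processing notes name CASAVA and StringTie with no version. The way reads were aligned and counted, and the strand setting, build and annotation used for it, were not given in the sources used here.

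Groups were compared with edgeR 4.0.16 (R 4.3.3) by the quasi-likelihood F test on the deposited counts, with TMM factors, filterByExpr and group as the only term. P-values were adjusted by Benjamini-Hochberg over 17006 genes. SE was derived from the F statistic. Log2 CPM used a prior count of 2. GENCODE 29 gave positions, gene types, GC content and lengths, and RefSeq (GRCh38.p14) the promoter windows. Alternatives were DESeq2 size factors, upper-quartile factors, no low-count filter, at least 1 CPM in 3 libraries, DESeq2 1.42.0, limma-voom (limma 3.58.1), a block by replicate number, offsets from a loess fit (span 0.5) on GC content and transcript length (16825 genes), block and offsets together, and each library left out.

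The members and gene lists were chosen with earlier results of these data known. The rule for names takes GPT2, the members, YAP1, WWTR1, TEAD1 to TEAD4, the other CCN genes, genes past the test and the 3 with the smallest p in each list, and the nearest profiles; 1 gene it takes is not reported here. Names outside it (VGLL1, VGLL4, LATS1, CCDC80, MYOF, ITGAV, LIMD1, LPP, PROS1, FRMD6, the untested targets and the cell type markers) were chosen after their values were seen.

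No libraries were duplicates by a chi-square over genes. On counts simulated for GPT2si against GPT2sinc over 16717 genes, the test recovered 30.8% of the genes set to a 1.5-fold change, 66.2% at 2-fold and 94.9% at 4-fold. False calls made up 7.63%.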

Additional observations from a re-analysis of the deposited data

How the results depend on the processing

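Over all genes, 98 were called higher and 143 lower. Higher and lower calls were 17 and 27 with no low-count filter, 569 and 491 with DESeq2, 252 and 306 with the replicate block, 1212 and 1039 with GC and length offsets, and 906 and 788 with the replicate block and these offsets together. With DESeq2 size factors 61 were higher. Leaving out each library in turn gave 0 to 377 higher, 1 to 459 lower, 0 to 3 members higher and 0 to 5 other pathway genes higher. Without GPT2sinc 1, GPT2sinc 2, GPT2sinc 3 or GPT2si 1, 0 members passed. Fewer libraries were then fitted, and the reason for the rise in calls without GPT2si 2 was not tested. Other pathway genes called higher and lower were 6 and 2 with DESeq2, 2 and 1 with the replicate block, 13 and 4 with the offsets and 10 and 3 with both; the cause was not tested. The labels state no batch or pairing, so the replicate number was not a term in the reported fit. The deviations of libraries with the same number correlated at 0.0855, 0.114 and −0.187 across genes, and not every library correlated best with its own number. With 3 libraries per group these correlations cannot exclude pairing. All 9 members kept their direction in each setting where they were tested. Reversed signs were seen for WWTR1 (0.0081 with offsets, 0.0086 with block and offsets, 0.021 without GPT2si 2, down to −0.17), TEAD1 (−0.018 without GPT2si 3, up to 0.41), TEAD3 (−0.0041 without GPT2si 2, up to 0.18) and CCN4 (0.30 without GPT2sinc 1, 0.15 without GPT2si 2, down to −0.92). Depth limits what can be said of ANKRD1, the other CCN genes and the targets with too few counts to be tested.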
